A study of Mus musculus with 11 samples.

Results

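Chemokines are small secreted or membrane-anchored proteins that steer the movement of leukocytes, and chemokine receptors are the proteins on the cell surface that bind them. All genes of the deposited table whose symbol starts with Ccl, Cxcl, Cx3cl, Xcl, Ccr, Cxcr, Cx3cr, Xcr or Ackr followed by a digit were taken, 62 of 31280 genes. Of these, 39 were ligands and 23 were receptors. Among the ligands, 2 were Ccl19 pseudogenes, and Cxcl11 was annotated as a polymorphic pseudogene. The samples were livers of C57BL/6 mice of WT genotype, all fed a methionine- and choline-deficient (MCD) diet for 8 weeks, which produces a fatty, inflamed and scarred liver in mice. The limonin group (6 libraries) also received limonin, a bitter compound of citrus seeds, at 100 mg/kg into the stomach over 4 weeks, and the MCD group (5 libraries) received water in the same way. No mice on a complete diet are part of these comparisons, which all set limonin against water on 1 diet. The labels number the libraries of each group as replicates and do not say whether each was a separate animal; the p-values therefore measure only how libraries of a group vary. Levels are FPKM, that is, fragments scaled to transcript length and to the depth of the library.

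A chemokine binds a receptor coupled to a G protein, and the receptor then directs the cell along the gradient of the ligand. Ligands are named by the spacing of their first cysteines (CC, CXC, CX3C and XC), and most inflammatory ones bind several receptors. In the injured liver, hepatocytes, Kupffer cells, stellate cells, bile duct cells and endothelium make chemokines, and the receptors sit mainly on the monocytes, neutrophils, lymphocytes and dendritic cells that respond. Many inflammatory chemokine genes are switched on through NF-kappaB or, for the ligands of Cxcr3, through interferon.

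Promoters are shown for 4 ligands that held motif matches, and they do not stand for the called ligands as a set. Cxcl10 and Cxcl14 were lower in limonin livers, Cxcl1 was not called, and its neighbour Cxcl2 was expressed too low for the filtered test. The sequences run 5′ to 3′ on the strand of the gene in RefSeq's GRCm38.p6 table and end where the annotated transcript begins. Capitals mark matches, on either strand, to the NF-kappaB consensus (kappaB), to the interferon-stimulated response element GAAANNGAAA and to the interferon-gamma activated site TTCNNNGAA.
Cxcl10 (chr5:92348890-92349139, minus strand): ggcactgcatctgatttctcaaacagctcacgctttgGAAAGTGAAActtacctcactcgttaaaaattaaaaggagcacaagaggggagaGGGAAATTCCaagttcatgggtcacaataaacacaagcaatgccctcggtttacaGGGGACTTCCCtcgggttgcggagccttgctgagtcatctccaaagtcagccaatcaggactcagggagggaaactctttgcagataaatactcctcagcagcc
Cxcl14 (chr13:56296552-56296801, minus strand): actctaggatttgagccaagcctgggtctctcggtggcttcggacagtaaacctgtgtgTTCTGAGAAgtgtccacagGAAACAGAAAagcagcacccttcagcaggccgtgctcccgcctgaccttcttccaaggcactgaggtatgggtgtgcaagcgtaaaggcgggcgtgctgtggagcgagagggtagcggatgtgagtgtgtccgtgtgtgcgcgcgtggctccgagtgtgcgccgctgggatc
Cxcl1 (chr5:90890995-90891240, plus strand): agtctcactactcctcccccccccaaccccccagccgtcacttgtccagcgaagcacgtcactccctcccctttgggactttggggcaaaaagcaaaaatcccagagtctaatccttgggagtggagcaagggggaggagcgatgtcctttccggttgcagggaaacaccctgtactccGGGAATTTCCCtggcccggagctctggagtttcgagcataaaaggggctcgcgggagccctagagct
Cxcl2 (chr5:90903649-90903870, plus strand): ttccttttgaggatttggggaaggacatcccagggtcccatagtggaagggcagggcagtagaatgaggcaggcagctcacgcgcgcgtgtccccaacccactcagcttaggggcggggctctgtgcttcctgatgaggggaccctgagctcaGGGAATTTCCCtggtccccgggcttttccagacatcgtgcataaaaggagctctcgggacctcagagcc
In Cxcl10 the 5′-most capitals are an interferon-stimulated element and the following 2 stretches are kappaB matches, the second of them holding overlapping matches. In Cxcl14 the first stretch is an activated site and the second an interferon-stimulated element. Cxcl1 and Cxcl2 hold the same kappaB stretch, which matches on both strands. Promoter windows were found for 46 of the 62 genes (27 ligands and 19 receptors). In the 250 bases before the start, kappaB matches lay in 7 of 27 ligands (25.9%) and 4 of 19 receptors (21.1%), against 8.23% of 27025 genes in the table. Interferon-stimulated elements lay in 3 ligands (11.1%), namely Ccl19, Cxcl10 and Cxcl14, and in 0 receptors, against 3.46% of all genes. Activated sites lay in 2 ligands (7.41%) and 2 receptors (10.5%), against 8.13% of all genes. Of the ligands called lower in the filtered test, Cxcl10 alone held a kappaB match. The called ligands Ccl3, Cx3cl1, Ccl22 and Ccl27a held no match to any of the motifs. No window was found for the called ligands Ccl2, Ccl4, Ccl5, Ccl7, Cxcl16 and Ccl19-ps3. All of these are letter matches and do not show that a factor binds there.

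Every member was listed above 0 in at least 1 library, and 40 of 62 were above 0 in all 11 (26 ligands and 14 receptors). A mean of at least 0.5 FPKM over the 11 libraries was reached by 25 ligands and 7 receptors, and a mean of at least 10 FPKM by Cxcl12 and Ccl9 only. Receptors were low throughout: the FPKM of the 23 receptors summed to 5.67 ± 1.13 (SD, n = 6) in limonin livers and 11.4 ± 2.93 (SD, n = 5) in MCD livers. The FPKM of the 39 ligands summed to 91.1 ± 12.1 in limonin livers and 157 ± 25.6 in MCD livers, with no overlap, since the highest limonin library was at 107.9 and the lowest MCD library at 129. Cxcl12 alone made up 32.4% of the ligand sum in limonin livers and 19.4% in MCD livers.

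The comparison asked which of these genes differ with limonin in livers on the MCD diet. In limonin livers 12 ligands and both tested receptors fell, and no member rose. Groups were compared with limma on log2(FPKM + 1), a scale that understates the change of low genes, over the 10489 genes that reached 1 FPKM in 5 or more libraries, with Benjamini-Hochberg adjustment over all of them and a threshold of 0.05. Of all genes tested, 18.7% were called lower and 7.24% higher. The filter was passed by 21 ligands, 12 of them called lower and 0 higher, and by 2 receptors, both called lower. At an unadjusted p under 0.05 limma found 0 ligands and 0 receptors higher. Of the members that passed, Ccl22 and the receptor Ccr7 reached 1 FPKM in 0 limonin libraries, so they could pass only through MCD livers and had to differ. The ligand Ccl27a and the receptor Cxcr4 reached it in 1 limonin library each, and passed through their 5 MCD libraries. In all, 4 ligands and both receptors that passed reached 1 FPKM in fewer than 3 limonin libraries. The counts are therefore a description. The median log2 fold change was -0.74 over the 21 ligands, and -0.07 over all genes tested.

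To reach the other 39 members the same fit was run over all 31280 genes with no filter, where 5.68% of genes were called lower and 1.32% higher. Over all 62 members that fit called 12 ligands and 5 receptors lower, and with 1 library left out 2 to 15 ligands and 0 to 6 receptors. With 1 library left out it called 145 to 2210 of all 31280 genes lower. Among the 39 members under the filter, the fit on all 11 libraries called the ligands Xcl1, Ccl17 and Ccl20 and the receptors Cx3cr1, Cxcr3 and Ccr1. Each of these 6 lost its call with libraries scaled to equal summed FPKM (adjusted p of 0.0516 to 0.0555). The fit with no filter called 0 members higher, and at an unadjusted p under 0.05 it found 0 ligands and 1 receptor (Cxcr6) higher. A filter on a mean of at least 0.5 FPKM over all 11 libraries tested 25 ligands and called 12 lower. It tested 7 receptors and called 5 lower, with 0 members higher, and 19.0% of its 12775 genes were called lower and 6.88% higher. This filter takes no account of the group labels, but MCD livers still weigh in it. The called receptors Cx3cr1 (0.447 FPKM) and Ccr1 (0.260 FPKM) averaged below 0.5 FPKM in limonin livers and passed through MCD livers. The mean was lower in limonin livers for 37 of 39 ligands and 17 of 23 receptors. The highest limonin library lay below the lowest MCD library for 10 ligands and 4 receptors, which held for 4.76% of all genes in the table, and the reverse held for 0 members, against 1.4% of all genes. In the authors' deposited table, whose test no source used here describes, 12 ligands and 7 receptors were marked lower and 1 receptor higher, where 6.92% of all genes were marked lower and 3.73% higher. Of the 12 ligands called by limma with the filter, the authors' deposited table marked 8 (66.7% of either list), and it marked all 5 receptors called with no filter (71.4% of its own 7).

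**Figure D1:**
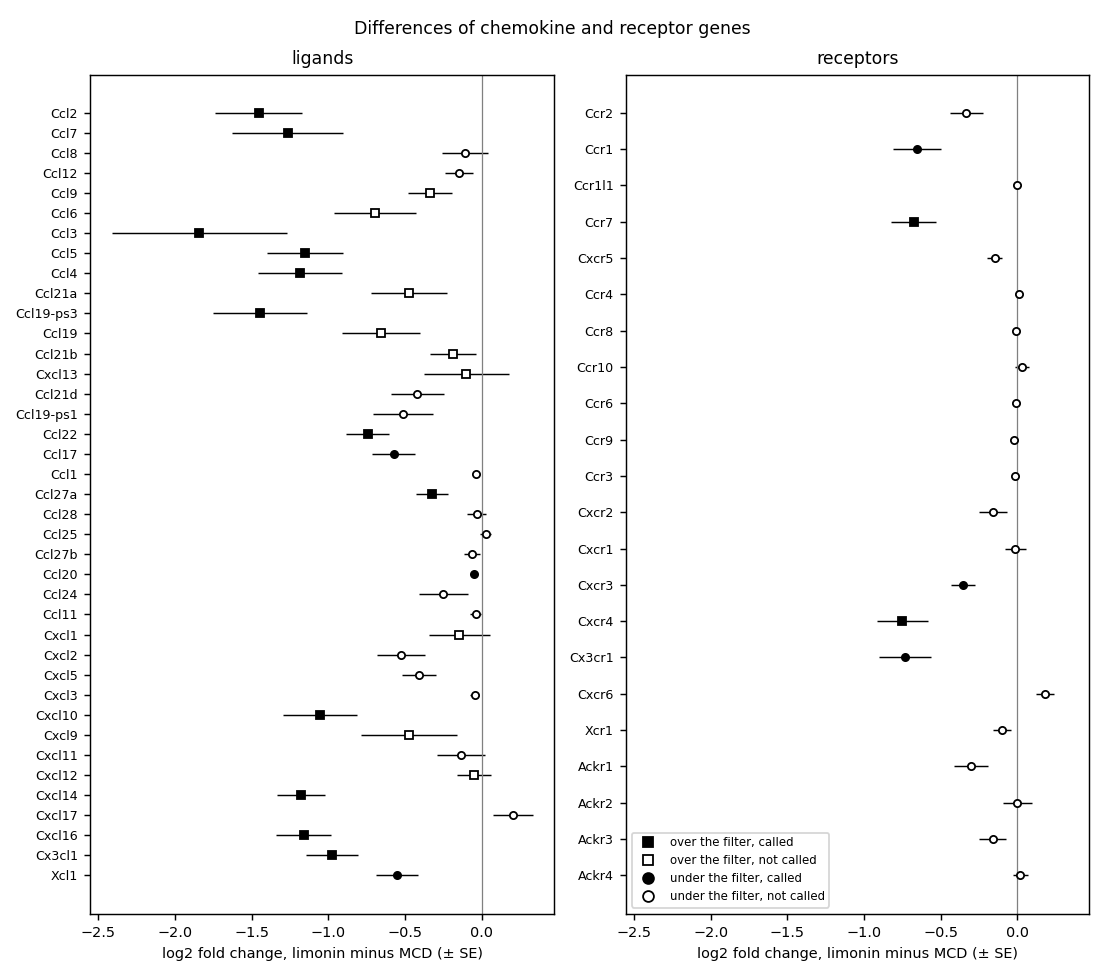
The log2 fold change (limonin minus MCD, ± SE) of the 39 ligands (left) and of 22 receptors (right), in the order of the receptor groups described in the text. Squares are genes over the filter, circles are genes under it with values from the fit with no filter, and filled symbols had an adjusted p under 0.05; all filled symbols lie left of 0.

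The membrane-anchored ligands were lower in limonin livers. Cxcl16, a transmembrane chemokine that also binds oxidized lipoprotein, lies on chr11:70453983-70459984, minus strand, and was at 3.41, 2.86, 4.35, 3.57, 3.48 and 3.19 FPKM in limonin 1 to 6, against 8.38, 13, 8.10, 5.21 and 12.2 FPKM in MCD 1 to 5. The limonin libraries lay close together and all below the lowest MCD library. The difference was a log2 fold change of -1.16 ± 0.18 (SE, adjusted p = 0.00165), and the limonin mean was 37.0% of the MCD mean. Cx3cl1 (fractalkine, chr8:94772009-94782427, plus strand), which tethers cells that carry Cx3cr1, was at 0.742, 1.20, 1.72, 1.06, 0.493 and 0.963 FPKM in limonin 1 to 6, against 3.98, 4.01, 2.36, 1.96 and 2.75 FPKM in MCD 1 to 5. The groups did not overlap, and the difference was a log2 fold change of -0.98 ± 0.17 (SE, adjusted p = 0.00266). The means of their receptors differed in opposite directions. Cx3cr1, carried by monocytes and macrophages, averaged 0.447 ± 0.184 FPKM in limonin livers and 1.45 ± 0.626 FPKM in MCD livers, with MCD 4 below limonin 3; in the fit with no filter it had a log2 fold change of -0.73 ± 0.17 (SE, adjusted p = 0.0323). That call was lost when limonin 2, 4, 5 or 6 or MCD 1, 2 or 5 was left out, with adjusted p of 0.0543 to 0.0872. The filter on the mean, which Cx3cr1 passed through MCD livers, gave an adjusted p of 0.00721. Cxcr6, the receptor of Cxcl16 on T and NKT cells, was at 0.227, 0.131, 0.322, 0.355, 0.370 and 0.202 FPKM in limonin 1 to 6, against 0.0806, 0.0886, 0.0667, 0.176 and 0.175 FPKM in MCD 1 to 5. It had the largest positive difference among receptors, although limonin 2 lay below MCD 4 and 5. limma with no filter gave a log2 fold change of 0.18 ± 0.06 (SE, adjusted p = 0.0915), which does not pass, while the authors' deposited table marked it higher with a fold change of 2.28 and a q-value of 0.0209. It overlaps Fyco1 on the opposite strand, and no source used here states whether quantification took the strand into account. The same limit holds for Cxcl16, which overlaps Zmynd15 on the opposite strand. Other members, among them Ccl6, Ccl19-ps3 and Xcl1, also overlap a gene on the opposite strand. Cx3cr1 overlaps genes on both strands, with Gorasp1, Csrnp1 and Xirp1 on its own strand.

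Among the monocyte CC ligands, Ccl2 and Ccl7, which draw monocytes from blood through Ccr2, fell, with a wide spread among limonin livers. Ccl2 (MCP-1, chr11:82035571-82037453, plus strand) was at 1.24, 0.611, 4.55, 3.44, 1.22 and 2.30 FPKM in limonin 1 to 6, against 8.13, 9.13, 6.95, 5.33 and 6.33 FPKM in MCD 1 to 5. All limonin libraries lay below the lowest MCD library, with limonin 3 and 4 highest and limonin 2 lowest; the difference was a log2 fold change of -1.45 ± 0.29 (SE, adjusted p = 0.00515). Ccl2 overlaps Gm17268 on the opposite strand. Ccl7 (MCP-3, chr11:82045712-82047525, plus strand), its neighbour, was at 0.235, 0.0978, 3.20, 2.39, 0.512 and 1.56 FPKM in limonin 1 to 6, against 5.89, 3.87, 4.55, 4.09 and 2.10 FPKM in MCD 1 to 5. The groups overlapped, since limonin 3 and 4 lay above MCD 5. The difference was a log2 fold change of -1.27 ± 0.36 (SE, adjusted p = 0.0263), and the call was lost without MCD 1, 2 or 3, at adjusted p of 0.0554 to 0.0665. It was also lost with no filter (adjusted p = 0.0605), with a pseudocount of 0.1 (0.0529) or 0.01 (0.0661), with the replicate block (0.0582) and in the authors' deposited table (q-value 0.17). Ccl8 averaged 0.225 ± 0.193 FPKM in limonin livers and 0.329 ± 0.280 FPKM in MCD livers and Ccl12 0.0305 ± 0.0747 FPKM in limonin livers and 0.151 ± 0.182 FPKM in MCD livers, with overlapping groups and no call. The receptor Ccr2 averaged 0.282 ± 0.152 FPKM in limonin livers and 0.616 ± 0.218 FPKM in MCD livers, and had a log2 fold change of -0.33 ± 0.11 (SE, adjusted p = 0.0833) in the fit with no filter; the authors' deposited table marked it lower with a q-value of 0.0198. Markers of monocytes and recruited macrophages summed to 63.0 to 130 FPKM in limonin livers and 125 to 525 FPKM in MCD livers, with 8 of 10 tested genes called lower, but 5 without limonin 2 or MCD 1 and 3 without MCD 2. With the replicate block 2 of the 10 were called lower, and with no filter 4 of the 14 listed. None of the 14 listed markers was at 0 in all libraries, and their part in these differences was not tested. In bulk tissue, fewer cells of a type and less RNA per cell cannot be told apart.

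The macrophage inflammatory protein group of CC ligands was mixed. Ccl5 (RANTES, chr11:83525778-83530518, minus strand), made by T cells, NK cells and macrophages among others, was at 1.59, 1.24, 2.21, 2.14, 4.17 and 2.55 FPKM in limonin 1 to 6, against 4.90, 12.2, 5.11, 4.19 and 6.31 FPKM in MCD 1 to 5. The groups did not overlap, although limonin 5 and MCD 4 differed by less than 0.05 FPKM, and MCD 2 stood highest. The difference was a log2 fold change of -1.15 ± 0.25 (SE, adjusted p = 0.00704). Ccl4 (MIP-1 beta, chr11:83662584-83664683, plus strand) was at 0.860, 0, 2.20, 2.50, 1.24 and 1.41 FPKM in limonin 1 to 6, against 5.33, 3.44, 4.74, 3.13 and 3.65 FPKM in MCD 1 to 5. It was listed at 0 in limonin 2 and the groups did not overlap; the difference was a log2 fold change of -1.18 ± 0.27 (SE, adjusted p = 0.00977), and it lost its call with a pseudocount of 0.1 (adjusted p = 0.0727) or 0.01 (adjusted p = 0.181), and in the authors' deposited table (q-value 0.222). Ccl3 (MIP-1 alpha, chr11:83647844-83649355, minus strand) was at 0.949, 0, 6.84, 5.46, 0.486 and 4.23 FPKM in limonin 1 to 6, against 15.4, 8.72, 12.8, 10.5 and 4.96 FPKM in MCD 1 to 5. It was also listed at 0 in limonin 2, and limonin 3 and 4 lay above MCD 5. On the log2(FPKM + 1) scale its difference was the largest of all members, with a log2 fold change of -1.84 ± 0.57 (SE, adjusted p = 0.0394). The call was lost when limonin 1, 2 or 5 or MCD 1, 2, 3 or 4 was left out, at adjusted p of 0.0601 to 0.0932. It was also lost with no filter (adjusted p = 0.0655), with a pseudocount of 0.1 (0.0873) or 0.01 (0.152), with equal summed FPKM (0.0619), with the replicate block (0.0549) and in the authors' deposited table (q-value 0.312). The same libraries were high and low for Ccl2, Ccl3, Ccl4 and Ccl7: limonin 3, 4 and 6 were the 3 highest of their group for each of these genes, and limonin 2 was the lowest. The coefficient of variation of Ccl3 was 96.6% in limonin livers and 38.0% in MCD livers, and that of Ccl7 was 95.2% in limonin livers and 33.3% in MCD livers.

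**Figure D2:**
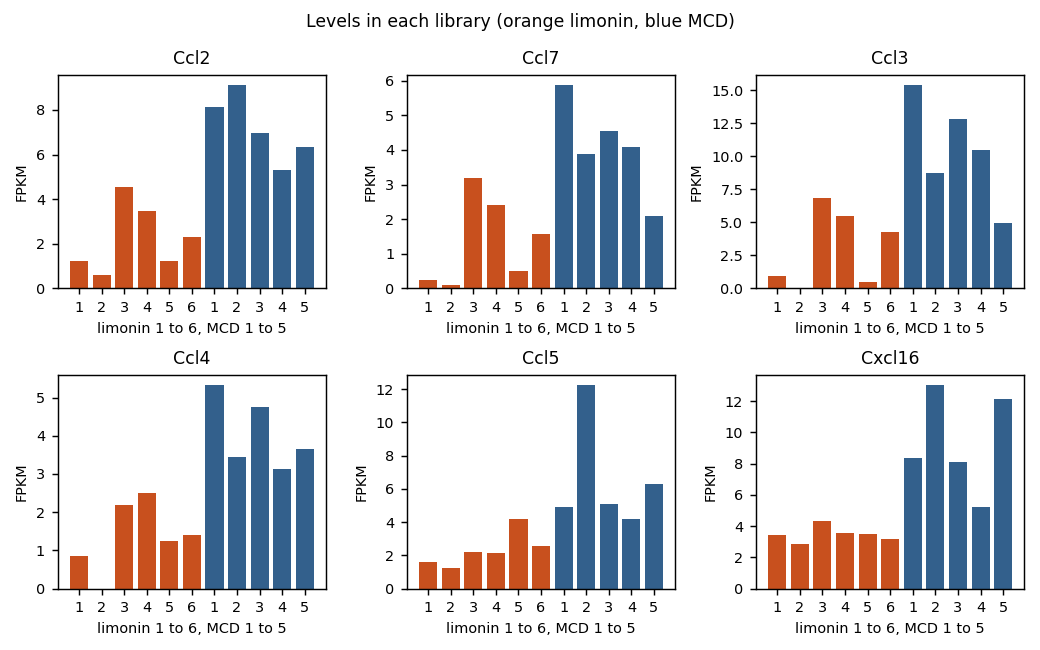
FPKM of 6 chemokines in each library (bars; orange limonin 1 to 6, blue MCD 1 to 5, each axis from 0). Limonin 3, 4 and 6 are the highest limonin bars for Ccl2, Ccl7, Ccl3 and Ccl4, while Cxcl16 lies between 2.86 and 4.35 FPKM in all 6 limonin libraries and Ccl5 is highest in MCD 2.

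Ccl6 and Ccl9, rodent members of the same group, were expressed at higher levels and were not called. Ccl6 averaged 5.97 ± 1.31 FPKM in limonin livers and 11.1 ± 5.69 FPKM in MCD livers, with a log2 fold change of -0.69 ± 0.27 (SE, adjusted p = 0.0738); MCD 2 and 5 were far above the rest, and MCD 1 and 4 lay within the limonin range. The authors' deposited table marked it lower with a q-value of 0.0440. Ccl9 averaged 10.1 ± 1.03 FPKM in limonin livers and 13.3 ± 3.34 FPKM in MCD livers, with a log2 fold change of -0.34 ± 0.15 (SE, adjusted p = 0.0995), and MCD 4 lay at the bottom of the limonin range. The receptor Ccr1, found on monocytes, macrophages and neutrophils, averaged 0.260 ± 0.0788 FPKM in limonin livers and 1.04 ± 0.540 FPKM in MCD livers, and its groups did not overlap. In the fit with no filter it had a log2 fold change of -0.65 ± 0.16 (SE, adjusted p = 0.0345). That call was lost without limonin 2, 4, 5 or 6 or MCD 1, 2 or 5, at adjusted p of 0.0559 to 0.0930. The filter on the mean, which Ccr1 passed through MCD livers, gave an adjusted p of 0.00846. Ccr1l1, a gene beside Ccr1, averaged 0.0150 ± 0.0367 FPKM in limonin livers and 0.0142 ± 0.0178 FPKM in MCD livers.

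Of the interferon-inducible ligands of Cxcr3, which draw activated T and NK cells, Cxcl10 fell. Cxcl10 (IP-10, chr5:92346638-92348889, minus strand) was at 2.58, 2.53, 5.68, 4.88, 6.10 and 3.43 FPKM in limonin 1 to 6, against 11.1, 13.7, 5.10, 9.04 and 10.1 FPKM in MCD 1 to 5. MCD 3 lay within the limonin range and the other 4 MCD libraries lay above it; the difference was a log2 fold change of -1.05 ± 0.24 (SE, adjusted p = 0.00944). Cxcl9, its neighbour, averaged 2.53 ± 1.60 FPKM in limonin livers and 3.71 ± 1.70 FPKM in MCD livers, with a log2 fold change of -0.47 ± 0.31 (SE, adjusted p = 0.285), and its groups overlapped broadly. Cxcl11, whose annotation is that of a polymorphic pseudogene, averaged 0.589 ± 0.361 FPKM in limonin livers and 0.721 ± 0.252 FPKM in MCD livers. It had a log2 fold change of -0.13 ± 0.15 (SE, adjusted p = 0.600) in the fit with no filter. That Cxcl10 differed more than Cxcl9 or Cxcl11 was not tested. Cxcl10 and Cxcl11 lie within Art3, a gene on the opposite strand. The receptor Cxcr3 averaged 0.521 ± 0.0796 FPKM in limonin livers and 0.951 ± 0.203 FPKM in MCD livers, and its limonin libraries (0.424 to 0.630 FPKM) did not reach its MCD libraries (0.677 to 1.20 FPKM). It had a log2 fold change of -0.35 ± 0.08 (SE, adjusted p = 0.0310) in the fit with no filter, and lost its call without limonin 2, 4 or 6 or MCD 2, 3 or 5, at adjusted p of 0.0552 to 0.0823; with the filter on the mean its adjusted p was 0.0131. Markers of T and NK cells summed to 3.86 to 7.30 FPKM in limonin livers and 6.64 to 16 FPKM in MCD livers. Of the 2 tested, 1 was called lower (0 without limonin 2, 3 or 6 or MCD 2 or 5, and 0 with the replicate block). With no filter 0 of the 15 listed were called. None of the 15 was at 0 in all libraries, and the part of these cells was not tested.

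Among the other CXC ligands, Cxcl14 fell, while the most abundant chemokine of these livers, Cxcl12, had nearly equal means in both groups. Cxcl12 (SDF-1, chr6:117168535-117181367, plus strand), which holds Cxcr4-bearing cells in tissue, was at 31.7, 29.2, 26.0, 34.8, 23.8 and 29.4 FPKM in limonin 1 to 6, against 24.5, 35.0, 32.0, 28.9 and 30.5 FPKM in MCD 1 to 5. The groups overlapped over nearly their whole range, with a log2 fold change of -0.05 ± 0.11 (SE, adjusted p = 0.780), and the sign turned with median-ratio scaling (0.05) and with libraries scaled to equal summed FPKM (0.07). Cxcl14 (chr13:56288643-56296551, minus strand), a chemokine of epithelia, was at 2.76, 2.99, 3.13, 3.30, 2.04 and 2.61 FPKM in limonin 1 to 6, against 9.30, 9.56, 5.95, 4.98 and 9.22 FPKM in MCD 1 to 5. Its limonin libraries were tight and none reached the lowest MCD library, and the difference was a log2 fold change of -1.18 ± 0.16 (SE, adjusted p = 0.00120), the smallest adjusted p of all members. Cxcl17, a mucosal chemokine, averaged 0.247 ± 0.275 FPKM in limonin livers and 0.0631 ± 0.0639 FPKM in MCD livers; limonin 1 and 3 were highest, limonin 2 was listed at 0, and it had a log2 fold change of 0.20 ± 0.13 (SE, adjusted p = 0.371) in the fit with no filter. The receptor of Cxcl12, Cxcr4 (chr1:128588199-128592293, minus strand), was at 0.959, 0.495, 1.11, 0.820, 0.618 and 0.635 FPKM in limonin 1 to 6, against 1.52, 2.70, 1.73, 1.11 and 3.22 FPKM in MCD 1 to 5. It was the highest receptor, and the highest limonin library lay just below the lowest MCD library; the difference was a log2 fold change of -0.75 ± 0.17 (SE, adjusted p = 0.00691). Cxcr4 reached 1 FPKM in 1 limonin library and in all 5 MCD libraries, and so passed the filter through MCD livers. Ackr3, the scavenging receptor of Cxcl12, averaged 0.325 ± 0.0899 FPKM in limonin livers and 0.489 ± 0.189 FPKM in MCD livers, with a log2 fold change of -0.16 ± 0.09 (SE, adjusted p = 0.299) and overlapping groups.

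The neutrophil chemokines, which bind Cxcr2, differed in level and in spread. Cxcl1 (KC, chr5:90891241-90893115, plus strand), the third most abundant ligand, averaged 9.45 ± 2.78 FPKM in limonin livers and 10.5 ± 3.16 FPKM in MCD livers, ranged over 6.32 to 12.7 FPKM in limonin livers and 7.73 to 15.7 FPKM in MCD livers, and had a log2 fold change of -0.15 ± 0.20 (SE, adjusted p = 0.616). Cxcl2 (MIP-2) was lower in level and averaged 0.202 ± 0.167 FPKM in limonin livers and 0.762 ± 0.461 FPKM in MCD livers. Its lowest MCD library, at 0.330 FPKM, lay below limonin 4 and above the other 5 limonin libraries, and the fit with no filter gave a log2 fold change of -0.53 ± 0.16 (SE, adjusted p = 0.0682). Cxcl5 averaged 0.0577 ± 0.0736 FPKM in limonin livers and 0.419 ± 0.265 FPKM in MCD livers, with MCD 3 below limonin 3, and had a log2 fold change of -0.41 ± 0.11 (SE, adjusted p = 0.0512). The authors' deposited table marked Cxcl2 (q-value 0.00564) and Cxcl5 (q-value 0.00704) lower. Cxcl3 was listed at 0 in all but 3 libraries, and it shares 90.7% identity with Cxcl2 over 545 aligned bases. Of the receptors, Cxcr2 averaged 0.0880 ± 0.0494 FPKM in limonin livers and 0.226 ± 0.215 FPKM in MCD livers, with MCD 5 far above the rest, and Cxcr1 averaged 0.0951 ± 0.0775 FPKM in limonin livers and 0.106 ± 0.105 FPKM in MCD livers; neither was called. Neutrophil markers summed to 4.38 to 9.36 FPKM in limonin livers and 5.92 to 38.4 FPKM in MCD livers, and none of the 11 was at 0 in all libraries. Of the 4 tested, 3 were called lower, but 1 without MCD 1 or 5, 0 without MCD 2 and 0 with the replicate block. With no filter 0 of the 11 were called. The part of neutrophils in these differences was not tested.

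**Figure D3:**
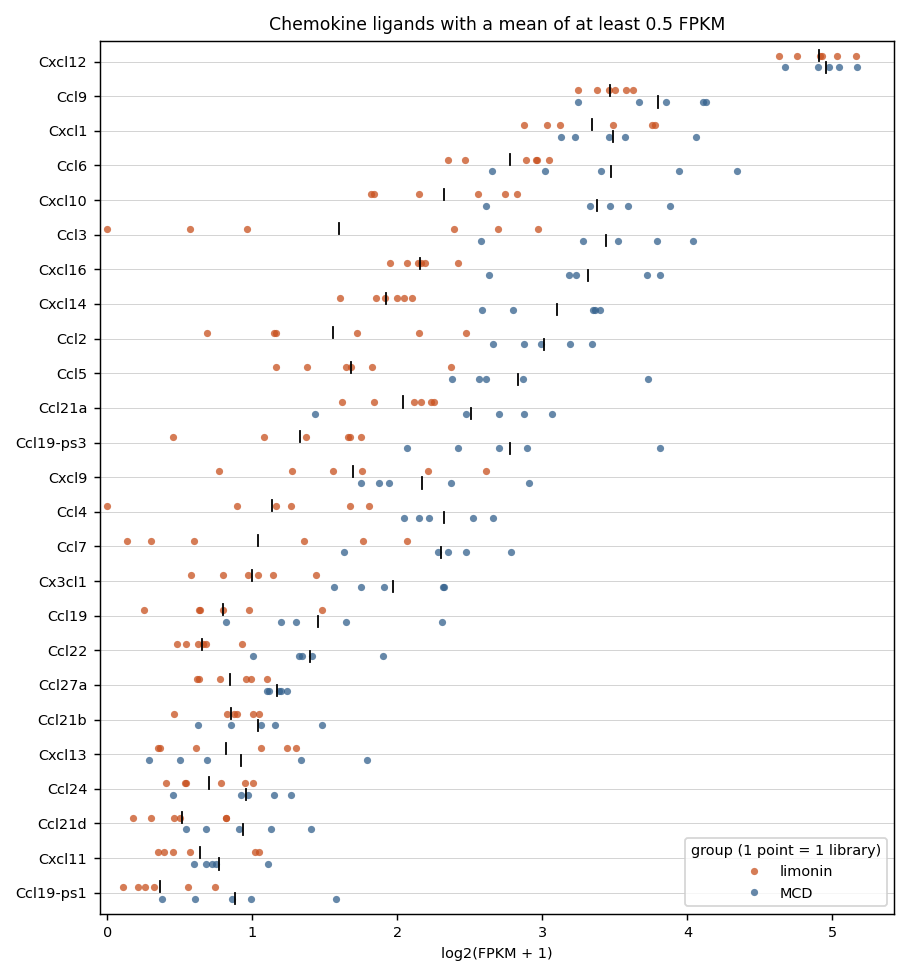
Levels of the 25 ligands with a mean of at least 0.5 FPKM, as log2(FPKM + 1), from the most to the least abundant (upper row of points limonin, lower row MCD; 1 point is 1 library and the black bar is the group mean). The groups overlap for Cxcl12 and Cxcl1, whereas Cxcl16, Cxcl14, Ccl2, Cx3cl1 and Ccl22 are separated.

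Ligands that guide lymphocytes and dendritic cells into lymphoid tissue were measured with a limit: Ccl19, Ccl21a and their copies are nearly identical on chromosome 4. Ccl19-ps3 and Ccl19 shared 100% identity over 285 aligned bases, and Ccl21a and Ccl21b shared 99.5% over 402, so the split of reads between copies is uncertain. The row labelled Ccl19-ps3 was at 2.20, 1.12, 2.16, 1.58, 2.36 and 0.371 FPKM in limonin 1 to 6, against 6.44, 13, 4.34, 3.20 and 5.49 FPKM in MCD 1 to 5. The groups did not overlap, with a log2 fold change of -1.45 ± 0.31 (SE, adjusted p = 0.00720). Ccl19 itself, a ligand of Ccr7, averaged 0.800 ± 0.549 FPKM in limonin livers and 1.92 ± 1.24 FPKM in MCD livers, with a log2 fold change of -0.66 ± 0.25 (SE, adjusted p = 0.0743), and the row labelled Ccl19-ps1 averaged 0.305 ± 0.225 FPKM in limonin livers and 0.921 ± 0.648 FPKM in MCD livers. Ccl21a, the other ligand of Ccr7, averaged 3.15 ± 0.683 FPKM in limonin livers and 5.10 ± 2.17 FPKM in MCD livers, with a log2 fold change of -0.47 ± 0.25 (SE, adjusted p = 0.172); MCD 1 was the lowest of all libraries. Ccl21b averaged 0.819 ± 0.242 FPKM in limonin livers and 1.09 ± 0.473 FPKM in MCD livers and Ccl21d 0.449 ± 0.265 FPKM in limonin livers and 0.956 ± 0.480 FPKM in MCD livers, and neither was called. Cxcl13, which guides B cells, averaged 0.833 ± 0.537 FPKM in limonin livers and 1.04 ± 0.933 FPKM in MCD livers and had a log2 fold change of -0.10 ± 0.28 (SE, adjusted p = 0.825), with a sign that turned under quantile normalization (0.05). The receptor Ccr7 (chr11:99144196-99155077, minus strand), carried by dendritic cells and naive T cells, was at 0.730, 0.395, 0.967, 0.343, 0.880 and 0.347 FPKM in limonin 1 to 6, against 1.03, 2.13, 1.54, 1.18 and 2.01 FPKM in MCD 1 to 5. The groups did not overlap and the difference was a log2 fold change of -0.68 ± 0.15 (SE, adjusted p = 0.00654), in a gene that passed the filter through MCD livers alone. Cxcr5, the receptor of Cxcl13, averaged 0.0514 ± 0.0389 FPKM in limonin livers and 0.166 ± 0.0847 FPKM in MCD livers, with a log2 fold change of -0.15 ± 0.05 (SE, adjusted p = 0.0856).

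Beside these, B cell markers summed to 4.00 to 9.50 FPKM in limonin livers and 10.2 to 16.6 FPKM in MCD livers, with 5 of 5 tested called lower. Only 3 were called without limonin 1, 4 or 6 or MCD 3 or 4, and 2 without MCD 2. Without MCD 4 and 5 only 1 B cell marker passed the filter, so the count leans on MCD livers. With no filter 3 of the 10 listed B cell markers were called lower, and with the replicate block 3 of the 5. Dendritic cell markers summed to 86.8 to 197 FPKM in limonin livers and 201 to 669 FPKM in MCD livers, with 4 of 4 tested called lower. The 4 tested were the MHC class II presentation genes Cd74, H2-Aa, H2-Ab1 and H2-Eb1, which are not confined to dendritic cells. The other listed markers, among them Clec9a, Flt3 and Zbtb46, did not pass the filter. With no filter 6 of the 11 listed dendritic cell markers were called lower, and with the replicate block 2 of the 4. None of the 21 listed B cell and dendritic cell markers was at 0 in all libraries, and their part in the levels of Ccr7 and its ligands was not tested.

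**Figure D4:**
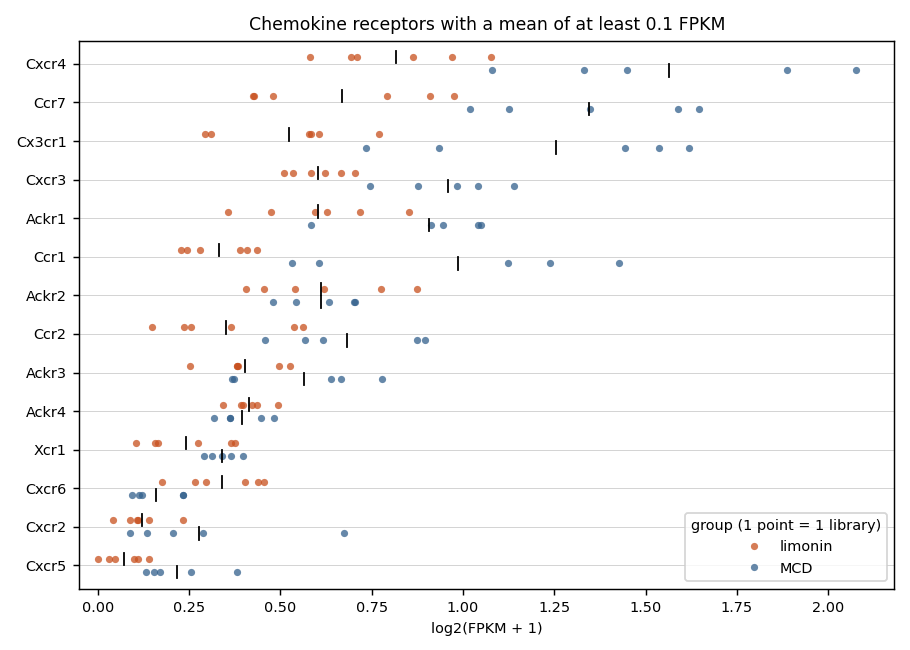
Levels of 14 receptors with a mean of at least 0.1 FPKM, as log2(FPKM + 1), from the most to the least abundant (upper row of points limonin, lower row MCD; 1 point is 1 library and the black bar is the group mean). Cxcr4, Ccr7, Cxcr3 and Ccr1 are separated between groups, Ackr2 and Ackr4 overlap, and Cxcr6 has a higher mean in limonin livers, which did not pass the test.

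The ligands of Ccr4, which draw regulatory and helper T cells, were lower. Ccl22 (MDC, chr8:94745590-94751699, plus strand), made by dendritic cells and macrophages, was at 0.579, 0.459, 0.602, 0.396, 0.909 and 0.545 FPKM in limonin 1 to 6, against 1.5, 2.74, 1.54, 1.01 and 1.66 FPKM in MCD 1 to 5. The groups did not overlap, with a log2 fold change of -0.74 ± 0.14 (SE, adjusted p = 0.00343). Ccl22 reached 1 FPKM in 0 limonin libraries and in all 5 MCD libraries, and so passed the filter through MCD livers alone. In the fit with no filter the adjusted p of Ccl22 was 0.0209. Ccl17 (TARC), which lies on the far side of Cx3cl1 from it, averaged 0.214 ± 0.244 FPKM in limonin livers and 0.790 ± 0.235 FPKM in MCD livers and had a log2 fold change of -0.57 ± 0.14 (SE, adjusted p = 0.0361) in the fit with no filter. It was listed at 0 in limonin 1 and 6, and limonin 5 lay above MCD 4. That call was lost without limonin 1, 2, 3 or 6 or MCD 1, 2, 3 or 5, at adjusted p of 0.0520 to 0.0846. Ccl1, a ligand of Ccr8, reached at most 0.0446 FPKM, and Ccr4 and Ccr8 at most 0.0465 and 0.0439 FPKM. Xcl1 (lymphotactin), made by NK and T cells, averaged 0.213 ± 0.149 FPKM in limonin livers and 0.798 ± 0.408 FPKM in MCD livers, and its groups did not overlap. It had a log2 fold change of -0.55 ± 0.14 (SE, adjusted p = 0.0374) in the fit with no filter, and lost its call without limonin 1, 2, 4 or 6 or MCD 1, 2, 3 or 5, at adjusted p of 0.0521 to 0.0751. Its receptor Xcr1, found on cross-presenting dendritic cells, averaged 0.185 ± 0.0948 FPKM in limonin livers and 0.268 ± 0.0369 FPKM in MCD livers, with a log2 fold change of -0.10 ± 0.06 (SE, adjusted p = 0.338).

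The ligands of epithelial barriers and the eotaxins were low. Ccl27a (chr4:41769467-41774247, minus strand), a ligand of Ccr10 best known from skin, was at 0.990, 0.538, 0.714, 1.14, 0.941 and 0.552 FPKM in limonin 1 to 6, against 1.27, 1.17, 1.37, 1.15 and 1.3 FPKM in MCD 1 to 5. The groups did not overlap, though limonin 4 and MCD 4 lay close together, and the difference was a log2 fold change of -0.32 ± 0.11 (SE, adjusted p = 0.0376). Ccl27a reached 1 FPKM in 1 limonin library and in all 5 MCD libraries, and so passed the filter through MCD livers. The call was lost without limonin 2, 3 or 6 or MCD 1, 2, 3 or 5, at adjusted p of 0.0582 to 0.0797. It was also lost with median-ratio scaling (adjusted p = 0.0528), quantile normalization (0.15), equal summed FPKM (0.0959), no filter (0.0717) and the replicate block (0.135), and in the authors' deposited table (q-value 0.116). Ccl27a overlaps Il11ra1 on the opposite strand. Ccl24 (eotaxin-2) averaged 0.651 ± 0.283 FPKM in limonin livers and 0.972 ± 0.392 FPKM in MCD livers, with a log2 fold change of -0.25 ± 0.16 (SE, adjusted p = 0.378). Ccl20, the ligand of Ccr6, was listed at 0 in all 6 limonin libraries and in MCD 4, and at 0.0322, 0.0366, 0.0453 and 0.0661 FPKM in MCD 1, 2, 3 and 5. The fit with no filter called it lower (adjusted p = 0.0408) at levels too low for a fold to be read, and leaving out any library except MCD 4 ended the call (adjusted p of 0.0550 to 0.0979). Ccl25, Ccl27b, Ccl28 and Ccl11 reached at most 0.299 FPKM in any library, and the receptors Ccr3, Ccr6, Ccr9 and Ccr10 at most 0.229 FPKM.

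The atypical receptors, which bind chemokines without signalling through G proteins and so scavenge or transport them, had 0 calls among 4 members. Ackr1, found on venular endothelium and red cells, averaged 0.529 ± 0.186 FPKM in limonin livers and 0.887 ± 0.231 FPKM in MCD livers, with a log2 fold change of -0.30 ± 0.11 (SE, adjusted p = 0.118). Ackr2, a scavenger of inflammatory CC chemokines, averaged 0.538 ± 0.199 FPKM in limonin livers and 0.531 ± 0.104 FPKM in MCD livers, with a log2 fold change of -0.00 ± 0.10 (SE, adjusted p = 0.998), and its sign turned with median-ratio scaling (0.03) and with quantile normalization (0.08). Ackr4, which takes up Ccl19 and Ccl21, averaged 0.334 ± 0.0468 FPKM in limonin livers and 0.315 ± 0.0616 FPKM in MCD livers, with a log2 fold change of 0.02 ± 0.05 (SE, adjusted p = 0.818). At an unadjusted p under 0.05, Ackr1 passed (p = 0.0194) and the other three did not; the authors' deposited table marked none of the 4.

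Chemokine genes lie in clusters, and neighbours were set side by side with values of the fit with no filter. That fit called 5.68% of all genes lower. Ccl22, Cx3cl1 and Ccl17 lie within 66.4 kb of chromosome 8 and all 3 were called lower, although Ccl17 lost its call when any of 8 libraries was left out. On chromosome 4, 1 of 8 was called in the cluster of Ccl27a, Ccl19, Ccl21a and their copies, the row labelled Ccl19-ps3. In the chromosome 11 cluster of Ccl5, Ccl9, Ccl6, Ccl3 and Ccl4 (139 kb), 2 of 5 were called, namely Ccl5 and Ccl4 at its ends. In the cluster of Ccl2, Ccl7, Ccl11, Ccl12, Ccl8 and Ccl1 on the same chromosome (270.1 kb), 1 of 6 was called, Ccl2. On chromosome 5, 1 of 3 was called in the cluster of Cxcl9, Cxcl10 and Cxcl11 (44.1 kb), and 0 of 4 in that of Cxcl5, Cxcl3, Cxcl1 and Cxcl2 (147 kb). Of the 8 receptor genes within 469 kb of chromosome 9, Ccr1 alone was called lower, and Cxcr6 was the only one with a positive difference above 0.1.

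Other genes of the pathway were read from lists, and their counts are set against the 18.7% of all genes called lower and the median of -0.07. Among chemokines and binding proteins that the naming rule misses, 3 of 5 tested fell: Pf4 (platelet factor 4, Cxcl4) averaged 1.63 ± 0.295 FPKM in limonin livers and 5.67 ± 2.67 FPKM in MCD livers, Ccrl2 (a chemerin-binding receptor) had a log2 fold change of -0.62 ± 0.13, and Mif had -0.52 ± 0.15. Mif, a chemokine-like cytokine, was far above every named chemokine, at 254.3 ± 61.1 FPKM in limonin livers and 358 ± 27.6 FPKM in MCD livers, but it lost its call without MCD 2 (adjusted p = 0.0617) or MCD 3 (adjusted p = 0.0506). The call of Mif was also lost with median-ratio scaling, no filter, the replicate block and without MCD 4 and 5, at adjusted p of up to 0.0808. In receptor signalling, 11 of 23 tested fell and 1 rose, with a median of -0.31, but 6 fell without MCD 2 and 7 without MCD 5. The smallest p were those of Arrb2 (beta-arrestin 2, which takes receptors off the surface; -0.82 ± 0.15), Rac2 (-1.01 ± 0.19), Vav1 (-0.78 ± 0.16) and Prex1 (-0.65 ± 0.13), the last 3 acting on the cytoskeleton of moving leukocytes. Prex1 lay below 1 FPKM in all limonin libraries, so it could pass the filter only through MCD livers and had to differ. The gene that rose was Gnai3, an inhibitory G protein subunit, and it lost its call without MCD 2 (adjusted p = 0.0669) or MCD 3 (adjusted p = 0.0541). It also lost it with no filter, at either pseudocount of 1 or 0.1, and without MCD 4 and 5, at adjusted p of up to 0.0747.

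Of the NF-kappaB and TNF regulators, 9 of 16 tested fell and 0 rose, with a median of -0.39, but 5 fell without MCD 1 and 4 without MCD 2. Nfkb2 and Relb, partners in the non-canonical pathway, had -1.12 ± 0.16 and -1.12 ± 0.19, and the feedback genes Bcl3 and Nfkbie had -0.98 ± 0.17 and -0.75 ± 0.16. Of the interferon regulators, 6 of 10 fell and 0 rose, with a median of -0.47, but 3 fell without MCD 2. Irf7 (-1.08 ± 0.15), Irf8 (-1.0 ± 0.14) and Irf9 (-0.54 ± 0.13) were among them. With no filter, 5 of the 20 listed NF-kappaB and TNF regulators and 4 of the 12 listed interferon regulators were called lower. With the replicate block 4 of the 16 and 4 of the 10 were. Of the proteases that trim chemokines, 3 of 8 tested fell, but 1 without MCD 1 or MCD 2; Mmp2 had -1.13 ± 0.21, Mmp7 -2.88 ± 0.74 and Ctss -1.25 ± 0.42, and Dpp4, which clips Cxcl10 and Cxcl12, had 0.15 ± 0.11 and was not called. Mmp7 lost its call without MCD 1 or MCD 2, and Ctss when any library other than MCD 3 or MCD 4 was left out. Both also lost it with the replicate block and without limonin 5 and 6, and Ctss with no filter as well. Of the glycosaminoglycan and presentation genes, which hold chemokines on the cell surface, 3 of 12 fell, among them Hspg2 (-0.73 ± 0.13) and Cd44 (-0.91 ± 0.19), and 2 rose, among them Sdc2 (0.52 ± 0.12), with a median of 0.03. When any library other than limonin 1 or limonin 5 was left out, 1 rose, and without limonin 5, 3 rose.

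Of the remaining cell types, cholangiocyte and stellate cell markers fell. Cholangiocyte markers summed to 27.4 to 92.0 FPKM in limonin livers and 76.5 to 416 FPKM in MCD livers, with 7 of 7 tested called lower (4 without MCD 1 or MCD 2). With no filter 6 of the 10 listed were called lower, and with the replicate block 3 of the 7. Stellate cell and fibroblast markers summed to 52.5 to 78.0 FPKM in limonin livers and 83.8 to 171 FPKM in MCD livers, with 10 of 11 called lower. With no filter 7 of the 11 were called lower, and with the replicate block 5. Of the Kupffer cell markers 0 of 8 tested were called lower (2 without MCD 1) and 1 higher, and their sums overlapped (65.5 to 97.9 FPKM in limonin livers and 28.9 to 174 FPKM in MCD livers). Of the endothelial markers 1 of 10 was called lower and 1 higher; with 1 library left out, that single higher call was found only without limonin 5, MCD 3 or MCD 4. Of the erythroid markers 0 of 5 were called. Hepatocyte markers, which fit the liver label, summed to 33674 to 51223 FPKM in limonin livers and 31464 to 39419 FPKM in MCD livers, with 0 of 12 tested called lower and 4 higher (2 without MCD 1 or MCD 2). With no filter 2 of these 12 were called higher, and with the replicate block 0. No listed marker was at 0 in all libraries, and the part of these cell types in the chemokine differences was not tested. Across the 32 members with a mean of at least 0.5 FPKM, limonin 2 was the lowest of its group for 15, MCD 2 the highest of its group for 16 and MCD 4 the lowest of its group for 16.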

How the data were processed

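Poly(A) RNA was sequenced in 11 liver libraries, with libraries that mark the strand, per the labels' protocols. The tools were StringTie 1.3.4d, HISAT2 2.0.4 and cutadapt 1.9, per the submitters' processing notes, which name the human build GRCh38 although the gene identifiers are mouse ones. The authors deposited an FPKM for each gene in each library, and for each gene a p-value, a q-value, a ratio of the group means and the log2 of that ratio, per the file headers. For all 31280 genes the deposited q-value was the Benjamini-Hochberg adjusted p-value, and genes were marked at a q-value under 0.05 and a fold of at least 1.5. Counts were not used here. Reading the commonest low product of FPKM and transcript length as 1 fragment gave implied depths of 15577600 (MCD 3) to 19611000 fragments (limonin 3), and no counting intervals are given.

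Here FPKM were transformed to log2(FPKM + 1) and tested two-sided by limma 3.58.1 (R 4.3.3; trend, robust, no covariates) over genes that reached 1 FPKM in 5 or more libraries; members under that filter were read from the same fit over all genes. The procedure was tested on simulated data. Values are mean ± SD of FPKM (n = 6 limonin, n = 5 MCD) and log2 fold changes, limonin minus MCD, ± SE. Named are members with a mean of at least 0.5 FPKM, members below that with at least 1 FPKM in any library, a call with no filter or a named partner, and, per list, the 4 or fewer genes of smallest p; Gnai3 and Dpp4 were named after their values were seen. One receptor gene counts in the totals and is otherwise not reported here. The members and lists were chosen with earlier results of these data known. Coordinates are those of GENCODE M21 (GRCm38), and promoters those of RefSeq (GRCm38.p6), with 250 bases before the start. Alternatives were other filters, pseudocounts of 0.1 and 0.01, median-ratio, quantile and equal-sum scaling, no trend, weights per library, a replicate block, each library left out and the deposited calls. The replicate block used limonin 1 to 5 and MCD 1 to 5 and left out limonin 6. Leaving out limonin 5 and 6 or MCD 4 and 5, and combining no filter with another choice, were added after seeing the data. Same-numbered libraries did not deviate together (correlations of -0.235 to 0.204 over 5 pairs).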

Additional observations from a re-analysis of the deposited data

How the results depend on the processing

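The calls of Cxcl16, Cxcl14, Ccl2, Ccl5, Ccl19-ps3, Cx3cl1, Ccl22, Cxcr4 and Ccr7 held when 1 choice was changed at a time, in each setting in which these genes were tested, and among these settings Cxcl10 lost its call with the replicate block alone (adjusted p = 0.0838). The replicate block changed more than 1 thing, since it also left out limonin 6, which has no same-numbered MCD library. Of the genes that held, Ccl22, Cxcr4 and Ccr7 had passed the filter through MCD livers. When no filter was combined with each of 19 second choices, Cxcl16 and Cxcl14 lost the call with the replicate block alone (adjusted p = 0.194), while Ccl22 kept it in 16, Cx3cl1 in 15, Ccl2 in 14, Ccl19-ps3 in 12, Ccl5 in 11, Ccr7 in 9 and Cxcr4 and Cxcl10 in 8. With no filter and the replicate block, 0 of all 31280 genes were called in either direction. Ligands called lower numbered 8 to 12 with 1 library left out, 8 with the replicate block and 4 with a filter at 5 FPKM, where no receptor was tested. Over all genes tested, 996 to 2118 were called lower with 1 library left out, 895 with the replicate block and 900 with a filter at 5 FPKM. Receptors called lower numbered 1 to 2 with 1 library left out, 2 with the replicate block and 1 with median-ratio scaling; without any 1 MCD library Ccr7 and the ligand Ccl22 no longer passed the filter. They numbered 5 with no filter, with a mean of at least 0.5 FPKM and with no filter and a pseudocount of 0.1, and 7 in the authors' deposited table, which marked 1 receptor higher. No receptor was tested without MCD 4 and 5. In the fit with no filter, ligands called lower numbered 7 with equal summed FPKM, 0 with the replicate block (18 at an unadjusted p under 0.05), 5 without limonin 5 and 6, and 2 to 15 with 1 library left out. There, receptors called lower numbered 3 with quantile normalization, 1 with equal summed FPKM, 0 with the replicate block (8 at an unadjusted p under 0.05), 0 without limonin 5 and 6, 3 without MCD 4 and 5, and 0 to 6 with 1 library left out. Over all 31280 genes, that fit called 754 lower with equal summed FPKM, 0 with the replicate block and 440 without limonin 5 and 6. It called 1459 lower with quantile normalization and 1545 without MCD 4 and 5. With 1 library left out it called 145 (without MCD 2) to 2210 (without MCD 4), so the whole table moved with the members. The causes were not tested. The labels do not say whether same-numbered libraries belong together, and the correlations of their deviations (-0.235 to 0.204) cannot settle it.

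Differences near 0 turned sign. That of Cxcl12 was 0.0491 with median-ratio scaling, 0.0702 with equal summed FPKM, 0.0128 without limonin 5 and 6, and -0.119 to 0.00497 with 1 library left out, positive without limonin 5 and without MCD 2 (0.00479). That of Cxcl1 was 0.0735 without MCD 4 and 5. That of Cxcl13 was 0.0525 with quantile normalization and 0.0678 without limonin 5 and 6. That of Ackr2 was 0.0185 in the authors' deposited table and, with no filter, 0.0293 with median-ratio scaling, 0.0806 with quantile normalization, 0.0439 with equal summed FPKM, 0.0136 with the replicate block, 0.0563 without limonin 5 and 6, and -0.0534 to 0.0405 with 1 library left out, positive without 6 of the 11. Scaling moved the median of all genes tested, which was -0.07 as reported, to 0.01 with median-ratio scaling and to 0.03 with quantile normalization and with equal summed FPKM. Counts of the other lists moved by over 1.5 times in 126 of 884 comparisons with an alternative. Most receptors lie under 1 FPKM, where the log2(FPKM + 1) scale compresses differences, and the depth behind single values is not known.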
